A study of Mus musculus with 4 samples.

Results

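Acta2-high myofibroblasts were 1004 of the 50887 cells that passed the cell filter in 4 single-cell RNA libraries of mouse skin tumours. The cells were chosen by their unique molecular identifier (UMI) counts, each UMI standing for 1 captured transcript. A member had at least 20 UMIs of Col1a1 and Col3a1 together, no UMI of the recombination reporter YFP, at most 1 UMI of Cdkn2a and none of Ptprc, Epcam or Rgs5. It also had at most 2 UMIs of Gzmd and Gzme together, at most 1 of Mmp13, and at least 20 of Acta2 and Tagln together. Those 12 transcripts therefore chose the cells, and their levels are given below without a test. Without the last condition the rule held 3501 stromal cells. Of these, 2066 had 0 to 4 UMIs of Acta2 and Tagln and are called Acta2-low below, and 431 lay between.

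All 4 libraries came from LKPR mice, whose alleles include Lgr5CreER, p53fl/fl and the reporter Rosa26-YFP+/+. Tamoxifen thereby deletes p53 and switches on YFP in Lgr5-expressing cells. Control and NP137 animals alike had received 4 daily injections of 2.5 mg tamoxifen from postnatal day 28, and tumours were seen 7 to 9 weeks later. The 2 NP137 libraries came from mice given NP137, an antibody against the guidance protein netrin-1. Its intraperitoneal dose was 10 mg/kg, repeated every 2 days until death, and treatment began 4 weeks after tamoxifen. No agent is named for the 2 control libraries. Tumours were digested with collagenase and all live cells were sorted, with 10000 cells loaded per 10x Genomics channel, and the series asks whether blocking netrin-1 inhibits epithelial-to-mesenchymal transition. Whether each library is its own animal is not stated, so every p-value measures only the spread between these 4 samples. Recombination starts from Lgr5-expressing cells, so by the absence of YFP the members were taken as host stroma, although a recombined cell without a captured YFP UMI would also pass.

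Myofibroblasts are fibroblasts that have assembled smooth muscle actin and its partners into stress fibres and so pull on the matrix they secrete. They close wounds and then mostly disappear, and in carcinomas they line the tumour edge as one of the main classes of cancer-associated fibroblast. Tension and TGF-beta maintain the state through the transcription factor SRF with its myocardin-related cofactors, which bind a DNA element called the CArG box, and TEAD factors bind a second element, the MCAT box.

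Promoters of 4 contractile genes are shown first because each holds one of these elements. Most contractile genes have no exact CArG box in this window. Each run is 300 bases from RefSeq (GRCm38.p6), ending 50 bases after the annotated start, read 5′ to 3′ on the strand of the gene. Capitals mark the CArG box (CC, 6 A or T bases, GG), or in Acta2 the MCAT element (CATTCC or its complement GGAATG), both searched on both strands. Only exact matches were searched and counted. Near matches with a C or G among the 6 middle bases stayed unmarked, such as ccctatatgg and ccttgtttgg in Acta2.
Acta2: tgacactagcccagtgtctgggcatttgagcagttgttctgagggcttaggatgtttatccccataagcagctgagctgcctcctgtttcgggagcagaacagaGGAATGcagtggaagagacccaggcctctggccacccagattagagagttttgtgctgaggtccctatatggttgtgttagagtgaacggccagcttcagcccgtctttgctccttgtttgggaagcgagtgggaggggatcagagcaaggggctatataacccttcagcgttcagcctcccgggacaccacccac
Myl9: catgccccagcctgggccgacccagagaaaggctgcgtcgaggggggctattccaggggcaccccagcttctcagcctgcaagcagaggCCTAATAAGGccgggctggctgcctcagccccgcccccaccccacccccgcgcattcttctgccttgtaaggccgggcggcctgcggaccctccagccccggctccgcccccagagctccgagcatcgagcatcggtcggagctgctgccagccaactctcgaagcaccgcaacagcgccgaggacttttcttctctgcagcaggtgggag
Actg1: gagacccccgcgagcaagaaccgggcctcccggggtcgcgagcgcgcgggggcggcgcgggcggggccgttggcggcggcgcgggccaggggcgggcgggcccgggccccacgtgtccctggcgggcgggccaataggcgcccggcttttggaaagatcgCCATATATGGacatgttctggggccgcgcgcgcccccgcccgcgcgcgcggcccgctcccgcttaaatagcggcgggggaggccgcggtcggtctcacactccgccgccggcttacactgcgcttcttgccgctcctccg
Cnn2: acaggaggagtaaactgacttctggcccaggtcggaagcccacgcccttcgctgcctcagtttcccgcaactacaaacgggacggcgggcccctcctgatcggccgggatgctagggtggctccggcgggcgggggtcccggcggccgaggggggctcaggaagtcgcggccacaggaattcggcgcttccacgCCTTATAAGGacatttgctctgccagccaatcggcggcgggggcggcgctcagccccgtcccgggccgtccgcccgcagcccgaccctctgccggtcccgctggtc
These lie at chr19:34255324-34255623 (minus strand), chr2:156775214-156775513 (plus), chr11:120348446-120348745 (minus) and chr10:79988350-79988649 (plus). The marked element begins 146, 161, 90 and 56 bases before the start. Of 27025 genes with a promoter in the table, 488 (1.81%) held a CArG box. It was present in 6 of the 30 matched genes of a contractile list of 36 (Actg1, Cnn2, Ldb3, Myl6, Myl9 and Vcl) and in 4 of 17 matched genes among the 21 that were at least 2-fold higher in Acta2-high than in Acta2-low cells of every library. None of 65 matched genes among the 93 that were at least 2-fold lower held one. The MCAT element was found in 16.6% of all genes, 12 of the 30 contractile genes and 12 of the 65 lower genes. A match describes the letters of this window and no binding was measured.

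Member cells numbered 80 in control 1, 7 in control 2, 108 in NP137 1 and 809 in NP137 2. NP137 2 thus held 80.6% of them. With 7 cells the values of control 2 are coarse. The members' summed UMIs were 1001534, 162539, 575720 and 14019766, so that 1 UMI was worth 0.998, 6.15, 1.74 and 0.0713 CPM. Levels below are CPM, the UMIs of a gene per 1000000 UMIs of all genes over the cells of a class in a library, always in the order control 1, control 2, NP137 1, NP137 2. A member had a median of 11667, 15465, 4871.5 and 16748 UMIs, against 3703, 6162.5, 2338 and 10075 for Acta2-low cells of the same libraries. Acta2 and Tagln together reached a median of 69, 46, 34 and 98 UMIs per member, and at most 751. Members just inside the threshold (20 to 24 UMIs, 64 cells) had 1640, 866, 2622 and 978 CPM of Acta2, and the 96 cells just outside (15 to 19 UMIs) had 1111, 646, 1964 and 749 CPM.

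Several facts about the libraries touch what follows. Cell barcodes were shared by 249 pairs of passing cells in different libraries; no 2 members shared one, and 10 member barcodes matched a passing cell elsewhere. High doublet scores fell on 9, 0, 10 and 76 members, which were kept, and leaving them out is one of the alternatives. Xist without Y-linked UMIs was seen in 92.5% of members of control 1 and 91.0% of NP137 2. In control 2, 6 of 7 members had Y-linked UMIs alone, and NP137 1 held both kinds, 39 cells with Xist alone and 23 with Y-linked UMIs alone. One date appears in the names of the files deposited for control 1 and NP137 1, and 2 other dates for control 2 and NP137 2. Control 1 and NP137 1 are thus the only control and NP137 libraries of 1 date. At the edge of the rule, 238 members had 1 Cdkn2a UMI, 251 had 1 Mmp13 UMI and 158 had 1 or 2 UMIs of the 2 granzymes.

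At the limit of 20 UMIs, the share of members among stromal cells overlapped between the groups. It was 17.4% in control 1 (95% Wilson interval 14.2 to 21.2%), 7.37% in control 2 (3.61 to 14.4%), 15.5% in NP137 1 (13.0 to 18.3%) and 36.0% in NP137 2 (34.0 to 38.0%). NP137 2 stood above the other 3 libraries, while NP137 1 lay between the controls. The means were 12.4% and 25.7%, a difference of 13.3 percentage points (p = 0.667 by an exact, 2-sided permutation test). The smallest p that 2 and 2 libraries allow is 0.333. The difference was 3.05 points without NP137 2 and 23.6 without NP137 1. Within the pair of 1 date, NP137 1 was 1.98 points below control 1. With a limit of 10 UMIs the shares were 22.2%, 16.8%, 25.9% and 41.8%, and both NP137 libraries lay above both controls (exact permutation test, p = 0.333). The intervals cover counting error only. A threshold of 20 UMIs is easier to pass in a deep cell, so the share was also taken with every cell thinned to a fixed depth and Acta2 and Tagln required at 0.2% of its UMIs. At 2000 UMIs it was 24.6%, 10.8%, 40.8% and 35.4%, and both NP137 libraries lay above both controls (exact permutation test, p = 0.333). At 5000 UMIs it was 34.8%, 12.5%, 62.7% and 34.9% of 210, 64, 102 and 2122 cells, a difference of 25.2 points (exact permutation test, p = 0.333). There NP137 2 exceeded control 1 by less than 1 point. Members made up 0.685%, 0.123%, 0.650% and 4.78% of all passing cells.

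**Figure D1:**
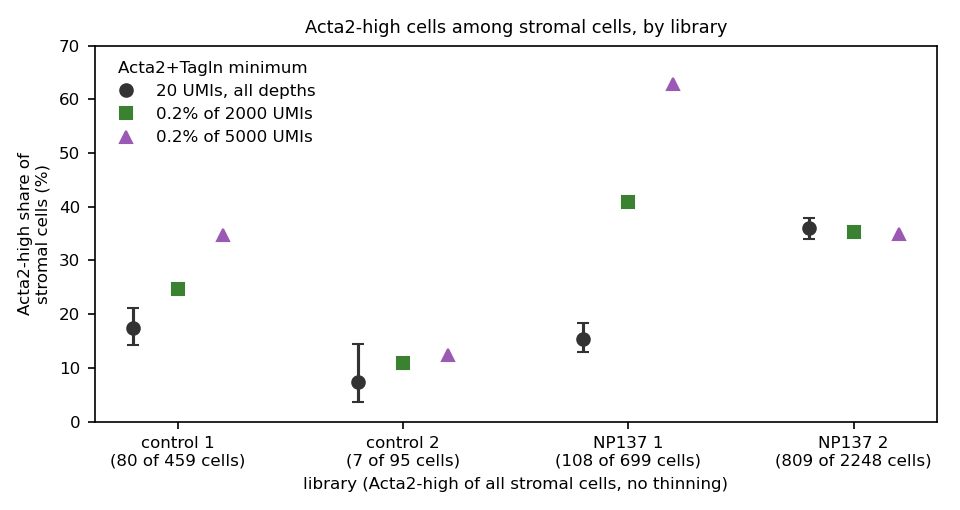
Share of Acta2-high cells among stromal cells (%, y axis) in each of the 4 libraries (x axis), with no thinning (circles, bars are 95% Wilson intervals) and with cells thinned to 2000 (squares) or 5000 UMIs (triangles). Without thinning NP137 2 stands alone at 36.0%, and with thinning to 2000 UMIs NP137 1 moves from 15.5% to 40.8%.

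The label was checked against contractile, matrix and mural markers. Actg2, the gamma smooth muscle actin (chr6:83512905-83536265, minus strand, mm10 with GENCODE M21 annotation), was not in the rule. It had 366, 160, 457 and 285 CPM in members against 3.26, 2.83, 27.5 and 2.59 in Acta2-low cells. All 4 member values exceeded every Acta2-low value. With cells thinned to 2000 UMIs, 32.5%, 42.9%, 36.1% and 29.0% of members had an Actg2 UMI (53.8%, 42.9%, 48.1% and 55.1% unthinned). Ptprc-positive leukocytes, a class that should lack it, had one in at most 0.765% of cells at the same depth. Tnc, the matrix glycoprotein tenascin-C (chr4:63959785-64047015, minus), had 2361, 4547, 1496 and 1347 CPM against 703, 2643, 1291 and 348. Cthrc1, a collagen triple helix repeat protein of activated fibroblasts (chr15:39076932-39087121, plus), had 617, 2104, 325 and 782 against 268, 545, 193 and 511. Tnc and Cthrc1 were higher in members than in Acta2-low cells of each of the 4 libraries, and both ranges overlapped between the classes. Stromal cells between the classes, with 5 to 19 UMIs of Acta2 and Tagln, had 2114, 3529, 1835 and 944 CPM of Tnc. Their Cthrc1 was 436, 1082, 206 and 757 CPM. In NP137 1 their Tnc thus lay above that of members, and in NP137 2 their Cthrc1 was near the members' 782. Acta2 itself (chr19:34241090-34255590, minus) had 4249, 2006, 4572 and 4279 CPM and Tagln, the actin-binding protein transgelin (chr9:45929619-45936058, minus), 3228, 954, 3549 and 3207, as the rule required.

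Mural cells, the pericytes and smooth muscle of vessels, also carry Acta2, so 1049 cells of the libraries with at least 3 Rgs5 UMIs served for comparison. Myh11, the smooth muscle myosin heavy chain, had 8.99, 0, 24.3 and 23.5 CPM in members against 280, 278, 304 and 207 in mural cells. Mylk, the kinase of the myosin light chain, had 28, 0, 24.3 and 45.3 against 666, 573, 515 and 480. Des, which encodes desmin, had 13.0, 0, 8.68 and 54.0 against 771, 844, 794 and 694, and the pericyte receptor Notch3 had 19, 0, 5.21 and 6.70 against 470, 398, 354 and 244. The ranges of members and mural cells did not overlap for any of these 4 genes. Over the 19 mural genes outside the rule the summed level was 135 to 623 CPM in members and 4223 to 7553 in mural cells, and Rergl had no UMI in members, like Rgs5, which the rule fixed. In the other direction, Lrrc15, a marker of TGF-beta-driven cancer fibroblasts, had 847, 763, 950 and 373 CPM in members and under 120 in mural cells of each library. Acta2-low cells had 349, 311, 458 and 34.8 CPM of Lrrc15, a range that overlapped that of members. Stromal cells with 5 to 19 UMIs of Acta2 and Tagln had 656, 885, 1009 and 162, above members in control 2 and NP137 1. By these markers the members carried smooth muscle actins and fibroblast matrix genes with little of the defining mural set. Rgs5 was excluded in members and required in mural cells, a choice that favours a gap in genes expressed together with it. How much of the gap came from that choice was not tested. Sub-cluster 6 of the members, described below, had Des at 300 CPM, Mylk at 153 and Myh11 at 63.7.

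**Figure D2:**
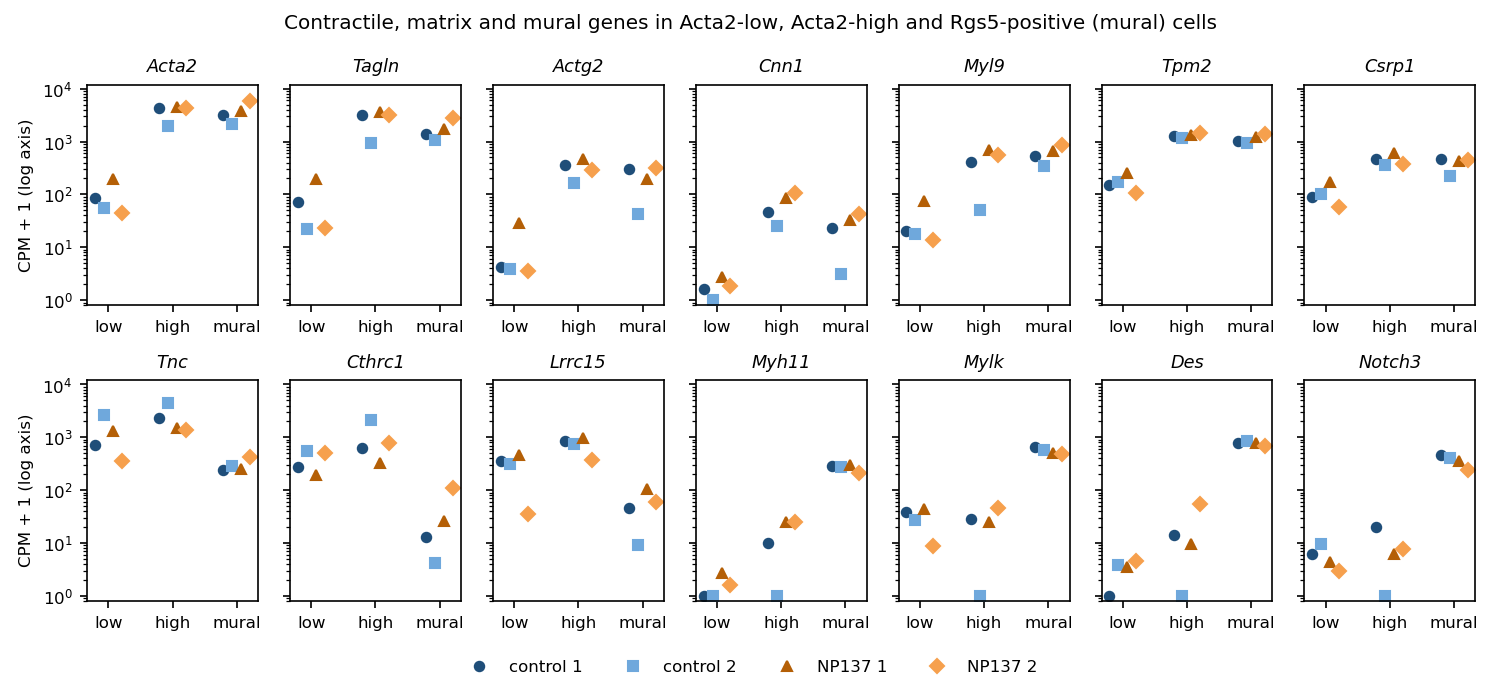
CPM plus 1 (log axis) of 14 genes in Acta2-low, Acta2-high and Rgs5-positive mural cells (x axis), 1 point per library. Actg2 and Cnn1 are high in Acta2-high and mural cells, and Myh11, Mylk, Des and Notch3 in mural cells. Tnc, Cthrc1 and Lrrc15 are higher in Acta2-high than in Acta2-low cells of each library, with ranges that overlap.

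Markers of endothelial cells, leukocytes, Schwann cells and melanocytes were low in members. The summed list of 12 endothelial genes was 49.9, 43.1, 67.7 and 51.5 CPM. The 14 leukocyte genes outside the rule summed to 293, 43.1, 908 and 613 CPM, against 38342 to 57971 in the leukocytes of the same libraries. The 14 keratinocyte genes outside the rule summed to 368, 652, 1450 and 174 CPM, and leukocytes of the same libraries carried 1160, 1708, 5387 and 458. The sum was lower in members than in leukocytes of every library. The 12 Schwann cell and melanocyte genes summed to at most 12.3 CPM, with Sox10, Mal and Cdh19 at 0, and Adipoq and Plin1, which define adipocytes, were at 0. The 26 genes of dermal papilla and dermal sheath, the hair follicle's own Acta2-positive stroma, summed to 526, 689, 1530 and 606 CPM in members and 865, 703, 1704 and 408 in Acta2-low cells. These ranges overlapped, and mural cells had 1700, 1591, 1466 and 1307 CPM, so this list was not low in members of NP137 1.

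Contractile genes were higher in members than in Acta2-low cells, and genes of quiescent and inflammatory fibroblasts were lower. The rule used this contrast, so it is described within each library, with no test. Among 3202 genes with enough counts, 21 (0.656%) were at least 2-fold higher and 93 (2.9%) at least 2-fold lower in all 4 libraries; in any size, 33.1% were higher in 4 of 4 and 19.3% lower in 4 of 4. Of the 36 contractile and actomyosin genes, 26 of those outside the rule were measured, 23 were higher in 4 of 4 libraries and none was lower in 4 of 4. The median log2 ratio of these 26 was 1.25, against 0.12 for all 3202. Without control 2, 49 genes were at least 2-fold higher and 157 at least 2-fold lower in the other 3 libraries. Members are deeper cells than Acta2-low ones and were chosen on 2 genes of this list.

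Cnn1, the actin regulator calponin, had 44.9, 24.6, 85.1 and 105 CPM in members and at most 1.72 in Acta2-low cells. Tpm2, the beta chain of tropomyosin, had 1298, 1175, 1313 and 1475 against 152, 171, 256 and 104, a mean log2 ratio of 2.97 ± 0.60 (SD, n = 4 libraries). Csrp1, a LIM protein that bundles actin, had 459, 363, 598 and 382 against 88.6, 102, 173 and 55.9. Its relative Csrp2 had 942, 1883, 627 and 966 against 278, 575, 180 and 321, and the log2 ratio of 1.7 ± 0.09 (SD, n = 4 libraries) varied little. Myl9, the regulatory light chain of smooth muscle myosin, had 416, 49.2, 690 and 554 against 19.5, 17.0, 73.2 and 12.5; control 2, with 8 UMIs in 7 cells, stood below the other 3. Tpm1, Palld, Actg1 and Myl6 had mean log2 ratios of 2.13, 1.45, 1.27 and 1.24. The cytoskeletal genes were joined by Tmsb4x, which encodes the actin-sequestering thymosin beta 4 (7523, 14526, 8372 and 9682 CPM against 2001, 3076, 3012 and 3033).

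Outside the cytoskeleton, Col8a1, a short-chain collagen of vessel walls and wounds, had 906, 345, 469 and 532 CPM against 164, 86.3, 191 and 129. Hs6st2, a heparan sulfate 6-O-sulfotransferase, had 185, 61.5, 116 and 177 against 7.82, 11.3, 43.9 and 27.4. Hs6st2 was also low in mural cells, at most 28.7 CPM in any library. Tmem97, the sigma-2 receptor of sterol handling, and Abracl had mean log2 ratios of 1.45 and 1.33.

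Genes of the fibroblast reservoir were the ones lower in members. Clec3b, which encodes tetranectin, had 3.99, 6.15, 0 and 24.9 CPM against 237, 130, 177 and 758 in Acta2-low cells. Tnxb, tenascin-X, had 4.99, 6.15, 5.21 and 19.2 against 159, 144, 212 and 451, and Cd34, a marker of adventitial progenitors, 7.99, 36.9, 12.2 and 19.9 against 202, 222, 114 and 372. In none of the 3 genes did a member value reach any Acta2-low value. Sfrp4, Efemp1, Chl1, Gda and Steap4 followed with mean log2 ratios between -4.31 and -2.84. Of 21 genes of universal and adventitial fibroblasts, 17 were measured, 13 were lower in 4 of 4 libraries and 8 at least 2-fold lower (Pi16, Ly6c1, Ly6a, Cd34, Ackr3, Gsn, Clec3b and Entpd2). Of 29 genes of inflammatory fibroblasts, 25 were measured and 19 were lower in 4 of 4. Among all 3202 measured genes, 19.3% were lower in 4 of 4 and 2.9% at least 2-fold lower. Complement C3 had 127, 61.5, 26.1 and 160 CPM against 891, 535, 545 and 1781, and the siderophore-binding lipocalin Lcn2 had 41.9, 0, 12.2 and 45.7 against 303, 69.3, 354 and 635. Cxcl12, the ligand of CXCR4, had 164, 86.1, 81.6 and 303 against 869, 371, 604 and 1358, and Ccl2, the monocyte chemokine, 983, 738, 598 and 946 against 2042, 2181, 1757 and 2756. Cxcl1, a neutrophil chemokine of the same list, had 1198, 1415, 1233 and 1518 against 1485, 1227, 1835 and 3333, so that the classes overlapped.

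Matrix genes divided by type. Of the 24 genes of fibrillar collagens and their processing outside the rule, 20 were measured, 11 were higher in 4 of 4 libraries and 2 lower, and none differed 2-fold in all. Among all 3202 measured genes, 33.1% were higher and 19.3% lower in 4 of 4. Serpinh1, the collagen chaperone HSP47, had 2740, 3691, 2911 and 3131 CPM in members against 1057, 1415, 1688 and 1916, with no overlap. Col1a1, in the rule, had 14879, 14390, 11931 and 11994 against 15597, 13998, 13032 and 11720, while Col3a1, also in the rule, had 8406, 15356, 5650 and 10858 against 16376, 18945, 12320 and 23159. Dcn, the small proteoglycan decorin, had 1010, 1224, 592 and 1260 against 6077, 3747, 4000 and 6605. Basement membrane genes were lower in 4 of 4 libraries for 10 of 15 measured, and the interstitial collagenase-activating gelatinase Mmp2 had 335, 548, 380 and 308 against 1572, 1197, 1123 and 935.

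Among signalling genes, the TGF-beta targets Ctgf and Lrrc15 were at least 2-fold higher in all libraries, 2 of 17 measured of a list of 25. Ctgf, a matricellular protein induced by tension, had 628, 554, 552 and 635 CPM against 294, 243, 130 and 80.7. Of the 28 ligands, receptors and storage proteins of the TGF-beta family, 18 were measured, 5 were higher and 7 lower in 4 of 4. Among all 3202 measured genes, 33.1% were higher and 19.3% lower in 4 of 4, and 0.656% were at least 2-fold higher. Tgfb1 had 404, 221, 255 and 183 against 111, 125, 143 and 40.6, and Inhba, the activin A subunit, 585, 80.0, 537 and 792 against 144, 77.8, 154 and 68.8. Inhba in control 2 stood near the Acta2-low level, on 13 UMIs. Pdgfra, the PDGF receptor of dermal fibroblasts, had 143, 111, 129 and 107 against 409, 400, 396 and 243. Genes of the hypoxia and glycolysis list were higher in 4 of 4 for 11 of 18 measured, ribosomal protein genes for 17 of 20, and mitochondrially encoded transcripts were lower in 4 of 4 for 12 of 12. These last groups move with depth and RNA content of the cells as well, and their part in the contrast was not tested.

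The same genes were followed over 5 bins of the Acta2 and Tagln count, from 0 to 4 UMIs to 100 and more. In NP137 2, where the top bin held 402 cells, Actg2 went from 2.59 to 449 CPM, Tpm2 from 104 to 1867, Ctgf from 80.7 to 841 and Inhba from 68.8 to 968. Over the same bins Dcn went from 6605 to 1073, C3 from 1781 to 148 and Cd34 from 372 to 17.0. Most of the decrease in Dcn and C3 lay between the first 2 bins, to 2838 and 427 CPM at 5 to 19 UMIs. Actg2 lay mainly in the upper bins, from 29.4 at 20 to 39 UMIs to 111 at 40 to 99 and 449 above. Control 1 had the same order at both ends, Actg2 from 3.26 to 588 and Dcn from 6077 to 804, with 29 cells in its top bin. The top bins of NP137 1 and control 2 held 6 and 2 cells, and the upper 3 bins of control 2 held 7 cells in all, so no course is read from them. Col1a1 stayed between 11372 and 13625 CPM in NP137 2.

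**Figure D3:**
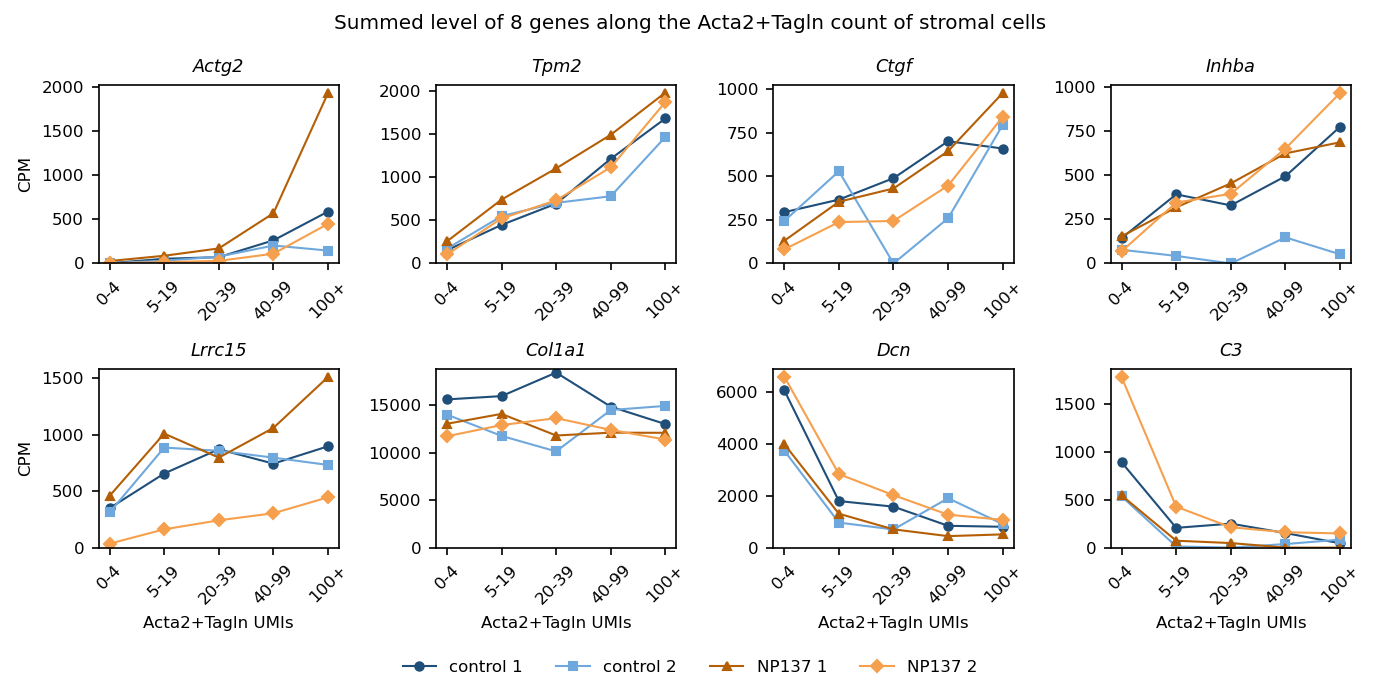
CPM (y axis) of 8 genes in stromal cells grouped by their summed Acta2 and Tagln UMIs (x axis), 1 line per library. Actg2 and Tpm2 increase to the right in control 1 and NP137 2, and Ctgf and Inhba do so in NP137 2. In control 1 Ctgf drops from 701 to 659 CPM into the top bin. Inhba there drops from 393 at 5 to 19 UMIs to 330 at 20 to 39. Dcn and C3 drop mostly between the first 2 bins, and Col1a1 shows no such course. The points of control 2 from 20 UMIs on stand for 2, 3 and 2 cells.

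NP137 was compared with control by summing the members' counts per library. No gene passed an adjusted p of 0.05 with edgeR's quasi-likelihood test (0 of 7063 tested, 0%; smallest adjusted p = 0.705). At an unadjusted p under 0.05, 92 genes were higher (1.3%) and 97 lower (1.37%), and 3489 of the 7063 log2 fold changes were above 0, with a median of -0.0059. DESeq2 called 5 genes: Fabp4, Mmp3 and Ube2c higher, Aldh1a3 and Sparcl1 lower. The count by edgeR depended on the libraries: it was 3 without control 1, 0 without control 2, 69 without NP137 1 and 15 without NP137 2. Log2 fold changes below are edgeR's, NP137 over control, with their standard error (SE), and no gene named in this comparison passed edgeR's adjusted test.

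Genes of mitosis were higher in both NP137 libraries. All 20 genes of a G2 and M phase list had higher CPM in both NP137 libraries than in both controls, while 19.2% of all tested genes did. Summed over the 20, the level was 537, 154, 1306 and 1183 CPM, and within the pair of 1 date it was 537 against 1306. Of the 17 that passed the filter on low counts, all 17 had a fold change above 0, the median was 1.45, and 12 had an unadjusted p under 0.05. After adjustment edgeR called none and DESeq2 called 1, Ube2c. The filter can be met through the NP137 libraries alone, so for genes low in both controls it partly set the direction. With no such filter, 20 of 20 were above 0 with a median of 1.56, against 10599 of 17316 of all genes (median 0.20). Without control 2, 20 of 20 were above 0 with a median of 1.32, and with a limit of 10 UMIs of Acta2 and Tagln 20 of 20 with a median of 0.85. At that limit the fold change of Ube2c was 1.59 and that of Prc1 0.78. Without control 1, 17 of 17 were above 0. No median is given for that run, because the 20 genes summed to 154 CPM in control 2, where 1 UMI is 6.15 CPM. Ube2c, the ubiquitin-conjugating enzyme of the anaphase-promoting complex, had 19, 0, 156 and 133 CPM (19, 0, 90 and 1862 UMIs), a log2 fold change of 3.26 (SE 0.55, edgeR adjusted p = 0.855). Birc5, which encodes survivin of the chromosomal passenger complex, had 62.9, 12.3, 174 and 155 (log2 fold change 1.79, SE 0.48). Ccnb1, the mitotic cyclin B1, had 13.0, 12.3, 45.2 and 38.2 (1.65, SE 0.43). Prc1, a spindle midzone protein, had 12, 6.15, 59.1 and 47.8 (2.26, SE 0.46), and Ccna2, cyclin A2, 9.98, 6.15, 34.7 and 41.9 (2.06, SE 0.46). In each of these 5 genes the groups did not overlap.

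Of the genes of DNA replication, 14 of 17 tested S phase genes were above 0, with a median of 0.52. With no filter on low counts 16 of 20 were, with a median of 0.54. Both NP137 libraries lay above both controls for 9 of the 20 and below for none, and the 20 summed to 500, 246, 518 and 635 CPM. Whether the 2 lists differed was not tested. Acta2-low cells had summed G2 and M levels of 333, 207, 526 and 408, mural cells 1321, 252, 1024 and 1693, and leukocytes 561, 807, 675 and 1121. Acta2-low cells of NP137 libraries thus also lay above those of controls, by less. None of the 20 genes passed the test of a difference in the NP137 effect between Acta2-high and Acta2-low cells. With cells thinned to 2000 UMIs, Birc5 was found in 8.75%, 14.3%, 17.6% and 19.5% of members (21.3%, 28.6%, 27.8% and 42.2% unthinned), against 7.29%, 4.49%, 12.6% and 10.5% of leukocytes. The 14.3% of control 2 is 1 of 7 cells. Sex differed between the libraries as given above, and its part in these differences was not tested.

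Mmp3, stromelysin 1, which cleaves proteoglycans and activates other matrix proteases, had 224, 67.7, 1390 and 858 CPM in members (11 UMIs in control 2). The log2 fold change was 2.82 (SE 0.54; edgeR adjusted p = 1), and the groups did not overlap. Its neighbour Mmp10 had 15, 0, 71.2 and 44.6 (2.22, SE 0.63), while Mmp2 and Mmp14 had fold changes of -0.40 and -0.26. Fabp4, a fatty-acid-binding protein of adipocytes and capillaries, had 9.98, 0, 104 and 192 CPM, against 2031, 1004, 1743 and 2743 in mural cells of the same libraries. The 9 adipocyte genes, Fabp4 among them, summed to 82.9, 12.3, 191 and 253 CPM in members, with Adipoq, Plin1, Cfd, Car3 and Lep at 0. Nsg1, an endosomal protein, had 20, 6.15, 48.6 and 68.5.

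Lower in both NP137 libraries was Sparcl1, an adhesion-modulating matrix protein of vessel walls, with 95.9, 117, 20.8 and 21.5 CPM (log2 fold change -2.32, SE 0.33, edgeR adjusted p = 0.705). Mural cells of the same libraries had 1833, 2510, 1499 and 816 CPM. Islr, the stromal protein meflin, had 128, 135, 34.7 and 40.1 (-1.82, SE 0.30, edgeR adjusted p = 0.705). Aldh1a3, which makes retinoic acid, had 109, 73.8, 3.47 and 15.6 (-2.98, SE 0.52), and Ltbp4, which stores latent TGF-beta on elastic fibres, 43.9, 49.2, 3.47 and 10.4 (-2.38, SE 0.48). Fibin had 383, 400, 193 and 172 CPM (-1.15, SE 0.27). For all 5 genes both control values lay above both NP137 values. Gm42418, a transcript that overlaps ribosomal RNA sequence, had 12987, 8047, 4940 and 3503, with the same order in Acta2-low cells (24004, 19792, 11090 and 4677) and in leukocytes.

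Matrix lists leaned to the lower side, with no gene called by edgeR and 1, Sparcl1 of the matricellular list, called by DESeq2. Fold changes were above 0 for 2 of 21 tested genes of fibrillar collagens and processing (median -0.26), 3 of 15 of crosslinking and elastic fibres (-0.39), 7 of 23 matricellular genes (-0.42) and 3 of 15 basement membrane genes (-0.54), against 3489 of 7063 of all. Tnc had 2361, 4547, 1496 and 1347 CPM (log2 fold change -1.34, SE 0.35, unadjusted p = 0.00634 and adjusted p = 1 by edgeR), and Postn, periostin, 3628, 6921, 2364 and 2188 (-1.27, SE 0.35). Both genes had their highest value in control 2. Mfap5, a microfibril protein, had 1962, 2553, 724 and 1134 (-1.32, SE 0.31), and Fn1, fibronectin, 3058, 2781, 1815 and 1723 (-0.77, SE 0.23). Cthrc1, at 617, 2104, 325 and 782, overlapped between the groups (-1.34, SE 0.80). Without control 2 the fold change of Cthrc1 was -0.15 and that of Tnc -0.74, and the matricellular median was -0.17. Summed over each list, the matricellular genes reached 34898, 48493, 25667 and 29751 CPM and the crosslinking genes 8197, 9198, 5430 and 6199; neither sum overlapped between the groups. The basement membrane genes summed to 7419, 6651, 6884 and 4067 and the fibrillar collagen genes outside the rule to 36343, 50308, 29250 and 36205, and the basement membrane sums overlapped.

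Within the TGF-beta family, 8 of 25 tested genes were above 0 (median -0.20) and 4 had an unadjusted p under 0.05, all lower: Ltbp4, Tgfb3, Ltbp3 and the receptor Tgfbr2. Without control 1 the median turned to 0.085, with 12 of 24 above 0. Tgfb3 had 129, 80.0, 53.8 and 45.5 CPM (-1.20, SE 0.32), Ltbp3 63.9, 92.3, 26.1 and 34.7 (-1.27, SE 0.38) and Tgfbr2 190, 308, 106 and 131 (-1.08, SE 0.34). Tgfb1, at 404, 221, 255 and 183, Tgfb2, at 251, 228, 290 and 169, and Inhba, at 585, 80.0, 537 and 792, overlapped. Target genes had a median of -0.14 with 9 of 22 above 0, which turned to 0.21 with 12 of 22 without control 1. Ctgf, at 628, 554, 552 and 635 CPM, had a fold change of -0.04 (SE 0.25), and Pmepa1, at 1342, 744, 1087 and 1064, one of 0.0007 (SE 0.30). For both targets the groups overlapped.

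In the contractile list most fold changes were small and above 0. Of 30 tested genes 24 were above 0, with a median of 0.28, and 2 had an unadjusted p under 0.05. Both NP137 libraries lay above both controls for 14 of the 30 and below for 1, against 19.2% and 14% of all tested genes. Without control 1 the median was 0.49, against 0.09 for all genes tested in that run. Without control 2 the median was 0.17 with 23 of 31 above 0. Summed over the 34 genes outside the rule, the level was 25184, 20801, 27225 and 27888 CPM, with both NP137 libraries above both controls. The rule asked for at least 20 UMIs of Acta2 and Tagln, genes of this same list, whatever the depth of a cell. Members had a median of 11667, 15465, 4871.5 and 16748 UMIs. Those just inside the limit had 1640, 866, 2622 and 978 CPM of Acta2. The part of this choice in the lean of the list was not tested. Cnn1 had 44.9, 24.6, 85.1 and 105 (1.28, SE 0.35, unadjusted p = 0.00691 and adjusted p = 1 by edgeR), and Myh11 8.99, 0, 24.3 and 23.5 (1.69, SE 0.62). Actg2 had a fold change of 0.41 (SE 0.41), and Tpm2 one of 0.13 (SE 0.24).

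Netrin genes, the target of the antibody, were scarce in members. Of 18 genes in the list, 17 are in the files, 14 had a UMI in a member and 5 passed the filter, with a median of -0.62 and none above 0. That lean rested on single libraries: 5 of 9 genes were above 0 without control 2 (median 0.017) and 3 of 6 without control 1 (median 0.039). Ntn1, netrin-1 itself, had 8.99, 61.5, 20.8 and 3.85 CPM in members against 128, 73.6, 71.5 and 13.0 in Acta2-low cells, and its ranges overlapped between the groups (-1.57, SE 1.35). Its receptor Unc5b had 130, 30.8, 69.5 and 59.3 (-0.57, SE 0.50), and Neo1, neogenin, 32.9, 49.2, 15.6 and 30.1 (-0.62, SE 0.47). The other receptors Dcc and Unc5d had no UMI in any member.

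Leukocyte genes leaned higher in members of the NP137 libraries. Keratinocyte sums, given above as 368, 652, 1450 and 174 CPM, overlapped between the groups. All 9 leukocyte genes tested were above 0 (median 1.39), and 13 of 14 with no filter on low counts (median 1.38). Without the highest doublet scores it was 6 of 6 with a median of 0.66, and with a limit of 10 UMIs 8 of 13 with a median of 0.14. The smallest p was that of S100a9, a neutrophil calcium-binding protein, at 76.9, 24.6, 455 and 171 CPM, and the list's sum in members is given above as 293, 43.1, 908 and 613. Acta2-low cells summed to 723, 550, 1234 and 1231. The part of such transcripts in the differences between NP137 and control was not tested. Leukocytes themselves had 81.6, 6.96, 40.3 and 42.1 CPM of Mmp3 and at most 30.2 of Sparcl1.

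**Figure D4:**
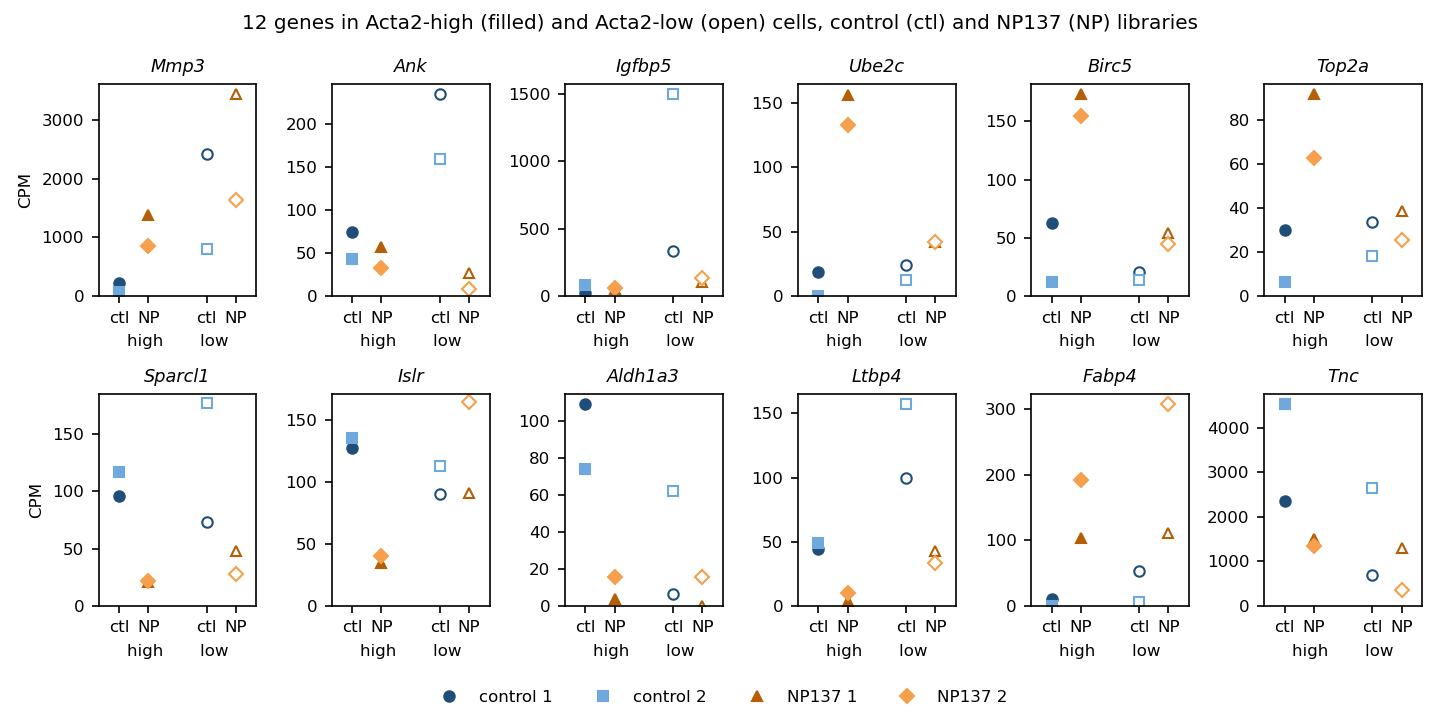
CPM (y axis) of 12 genes in control (ctl) and NP137 (NP) libraries, for Acta2-high (filled) and Acta2-low cells (open), 1 point per library. In Acta2-high cells Mmp3, Ube2c, Birc5, Top2a and Fabp4 are higher and Sparcl1, Islr, Aldh1a3, Ltbp4 and Tnc lower in both NP137 libraries, while Ank and Igfbp5 differ mainly among the open points.

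The NP137 effect was then compared between Acta2-high and Acta2-low cells, with each library as a block. The class by treatment term passed for 3 of 9160 genes (0.0328%), all with a more positive effect in Acta2-high cells: Mmp3, Ank and Igfbp5 (edgeR adjusted p = 0.024 for each). Mmp3 (chr9:7445822-7455975, plus strand) had 2424, 794, 3442 and 1634 CPM in Acta2-low cells, where the groups overlapped. The log2 difference of effects was 2.21 (SE 0.24). The log2 ratio of Acta2-high to Acta2-low was -3.41 and -3.46 in the controls and -1.31 and -0.93 under NP137. Mmp3 was thus lower in Acta2-high cells in all 4 libraries, by less under NP137.

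Ank, a pyrophosphate transporter (chr15:27466677-27594909, plus), differed through the Acta2-low cells. There it had 235, 160, 26.7 and 8.02 CPM, and in members 74.9, 43.1, 57.3 and 33.0, with overlapping groups. The log2 difference of effects was 3.24 (SE 0.38). Leukocytes of the same libraries had 97.9, 79.5, 19.4 and 11.9 CPM of Ank. Igfbp5, a secreted binder of insulin-like growth factors (chr1:72857932-72874884, minus), had 332, 1494, 102 and 130 in Acta2-low cells and 22.0, 80.0, 48.6 and 60.1 in members (2.78, SE 0.34). Cdkn2a, a transcript of recombined cells that the rule allowed at 1 UMI, had 86.0, 24.1, 44.8 and 4.72 CPM in Acta2-low cells and 34.9, 6.15, 20.8 and 13.6 in members, and its part in these terms was not tested. The 3 calls were lost without NP137 2 (2.10 for Mmp3, 2.75 for Ank and 2.90 for Igfbp5) and with at least 40 UMIs of Acta2 and Tagln. Ank also lost its call without control 1 (3.36) and Igfbp5 without control 2 (2.63). The Igfbp5 term was 0.94, and not called, with a limit of 10 UMIs. All genes taken, 19 were called without control 1, 4 without control 2 and 56 without NP137 1.

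Next in p, and not past the threshold, were Pla2g7, a platelet-activating factor hydrolase (3.08, SE 0.47, edgeR adjusted p = 0.111), and Islr in the other direction (-2.39, SE 0.37, edgeR adjusted p = 0.111). Islr had 90.6, 113, 91.3 and 164 CPM in Acta2-low cells, so its lower level under NP137 was seen in members and not there. Hmga2, Slc7a2, Galnt16, Hp, Cdc42ep2, Ifi205 and Mfap5 had adjusted p from 0.376 to 0.519.

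The 1004 members were not uniform. Clustering them by 1500 variable genes gave 8 sub-clusters, which are described without a test because the clusters come from the same counts. None has a name here, and their make-up by library was very uneven. Sub-clusters 6 and 7 held cells of NP137 2 alone (90 and 77), and NP137 2 gave 218 of 223, 135 of 140, 88 of 90 and 71 of 76 cells of sub-clusters 1, 4, 5 and 8. Sub-cluster 3 took 64 of the 80 cells of control 1, 4 of the 7 of control 2 and 68 of the 108 of NP137 1, but 6 of the 809 of NP137 2. Sub-cluster 2 drew 37 cells from NP137 1, 124 from NP137 2 and 5 from the controls.

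Sub-cluster 1 (223 cells) was led by an immunoglobulin transcript and by Cenpf, Cdc20 and Ube2c of mitosis, with Birc5 at 313 CPM against 32.0 to 158 in the other 7. Sub-cluster 2 (166 cells) was led by Crabp1, a retinoic acid binder, at 1093 CPM, and had the highest Mmp3 (2938 CPM), Tnc (3522) and Inhba (1733) of the 8, with Mmp10, Mmp9 and Il11 among its leading genes. Sub-cluster 3 (142 cells) was led by 1500015O10Rik, Igfbp2 and Eln, with Lrrc15 at 947 CPM, above the 235 to 651 of the others. The keratinocyte transcripts Lgals7 and Krt17 were also among its leading genes. Its median depth was 6469.5 UMIs, against 13247.5 to 19444 in the others. Control 1 and NP137 1, the pair of 1 date, gave 64 and 68 of its cells. The part of depth and date in its genes was not tested. Sub-cluster 4 (140 cells) had the highest Col1a1 (19429 CPM) and Col3a1 (18064), was led by Nov, H19 and C1qtnf3, and had the lowest Tgfb1 and Inhba.

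Sub-cluster 5 (90 cells) had the highest Actg2 (772 CPM), Cnn1 (257) and Ctgf (1810) and a median of 183 UMIs of Acta2 and Tagln. Its leading genes were transcripts of macrophages and neutrophils (Ccl6, Ccl4, C1qa, Lyz2), and 15.6% of its cells had high doublet scores. Sub-cluster 6 (90 cells) combined the highest Tagln (6098 CPM) with Des at 300 CPM, Mylk at 153 and Meox1 at 159, and was led by immunoglobulin transcripts and Clu. Desmin in the other 7 ranged from 5.54 to 86.1 CPM. Sub-cluster 7 (77 cells) had Bnip3 at 326 CPM and Pgk1 at 1460, genes that hypoxia induces, against at most 107 and 570 elsewhere, and the lowest Actg2 (91.4). Sub-cluster 8 (76 cells) kept reservoir genes, Clec3b at 201 CPM and Ly6a at 1162, and 46.1% of its cells had high doublet scores.

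**Figure D5:**
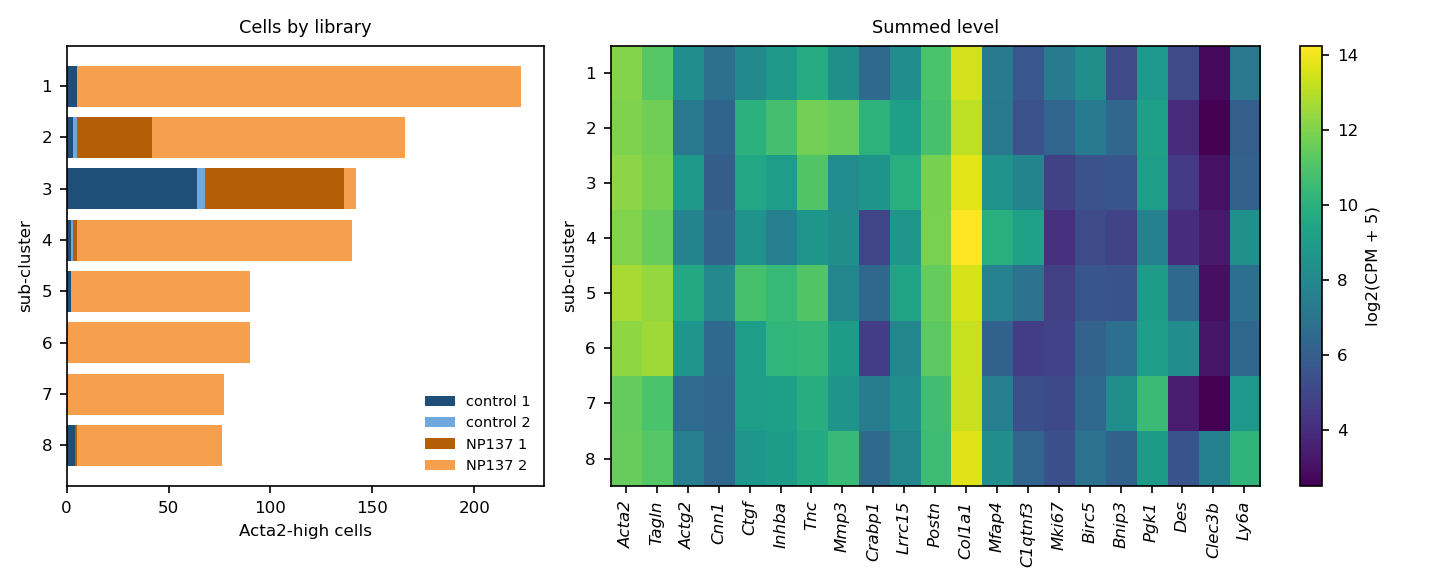
Left, number of Acta2-high cells (x axis) of each of 8 sub-clusters (y axis), divided by library. Right, log2 of CPM plus 5 (colour) of 21 genes (x axis) summed over each sub-cluster; Birc5 and Mki67 stand out in sub-cluster 1, Mmp3 and Crabp1 in 2, C1qtnf3 in 4, Des in 6, Bnip3 in 7 and Clec3b in 8.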

How the data were processed

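The deposited values are UMI counts per gene and cell barcode in 4 matrices, written by 10x software 3.0.2 per the file headers. The submitters' processing notes name mm10 and Seurat 3.1.5. For aligner settings and cell calling, the sources used here give nothing. The libraries held 69517664 to 149021188 UMIs in 8328 to 18146 barcodes, and intervals cover counting error only. Passing cells had at least 200 genes and under 20% mitochondrial UMIs. The members and the 38 gene lists were chosen with earlier results of these data known.

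Counts were summed per library and class (Python 3.11.15, scanpy 1.11.5) and tested with edgeR 4.0.16 in R 4.3.3 (quasi-likelihood, TMM, filterByExpr, Benjamini-Hochberg over all genes tested), with DESeq2 1.42.0 as an alternative. The tests were checked on simulated counts. Acta2-high over Acta2-low ratios used CPM plus 5, for genes of at least 50 CPM. Doublets were scored by simulated neighbours, taking the top 0.8% per 1000 barcodes, and were not removed. Thinning drew 2000 or 5000 UMIs per cell and left out shallower cells. Alternatives were another tool, no filter, each library left out, other limits of the rule, a stricter cell filter, no doublets and thinning. Genes were named as follows: for NP137, up to 10 per direction among those past the threshold, filled to 6 by smallest p among genes of at least 20 CPM in groups that did not overlap; for Acta2-high over Acta2-low, the 15 highest and 10 lowest by the ratio nearest 0; 3 per list by smallest p; and all markers. Other names, such as those of sub-clusters, were chosen after their values were seen. Gene positions are from GENCODE M21 and promoters from RefSeq. One allele of the mice and 1 gene of the lists are not reported here.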

Additional observations from a re-analysis of the deposited data

Results flagged for a closer look

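In 3 genes the difference between NP137 and control was not the same in Acta2-high and Acta2-low cells, by a test of that difference itself with each library as a block. On the log2 scale the effect in Acta2-high cells exceeded that in Acta2-low cells by 2.21 for Mmp3, 3.24 for Ank and 2.78 for Igfbp5 (edgeR adjusted p = 0.024 for each).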

How the results depend on the processing

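For NP137 against control, edgeR called 0 genes; DESeq2 called 5 and edgeR without a filter on low counts 51. Leaving out 1 library gave 0 to 69 calls. The fold change of Actg2 was 0.41 and changed sign to -0.0046 without control 2, with up to 1.20 without control 1. For the difference of the NP137 effect, 3 calls became 80 without the filter, 0 with at least 40 UMIs of Acta2 and Tagln, and 0 to 56 with 1 library left out. Ank, Igfbp5 and Mmp3 kept their sign in every alternative run; they lost the threshold without NP137 2 at 2.75, 2.90 and 2.10, and Ank also with the stricter cell filter, 500 genes and 10% mitochondrial UMIs (2.81). The share difference of 13.3 points was 25.2 with cells thinned to 5000 UMIs. Of Acta2-high over Acta2-low, 114 genes at least 2-fold apart became 75 with comparison cells of 0 to 19 UMIs, and 132 to 206 with 1 library left out, an alternative chosen after seeing the data. In that contrast, cells thinned to 2000 UMIs again gave 114 genes, which included 14 of the 21 higher and 61 of the 93 lower. The cause was not tested for any of these. With the replicate number as a block, 0 genes were called and 223 had an unadjusted p under 0.05. Deviations of same-numbered libraries from their group means correlated at 0.0416. Both numbers give that same value by construction when a group has 2 libraries. It therefore cannot tell whether the pair of 1 date shares more than its number. With 2 libraries a group, 1 of them of 7 cells, where 1 UMI is 6.15 CPM, genes of low level could not be compared.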
